A study of Mus musculus with 3 samples.

Results

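Odorant receptor genes with a measurable transcript were described in nasal mucosa of C57BL/6J mice, across 3 single-cell RNA libraries. A gene entered when its symbol began with Olfr or Or followed by a number and when at least 20 cell barcodes held at least 2 of its unique molecular identifiers (UMIs, 1 per captured transcript). This gave 138 of the 1412 odorant receptor genes among 55357 deposited genes, and 929 receptor genes had at least 1 such barcode. The 138, called the expressed receptors here, were chosen by their measured UMIs, so that their presence is a description and not a result. At the edge of the rule, Olfr1512, Olfr231, Olfr599, Olfr617, Olfr642 and Olfr981 had 20 barcodes each and entered, while Olfr1002, Olfr1510, Olfr557 and Olfr582 had 19 each and did not.

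The mice of the papain and lonidamine group (papain+LND) received 20 µg papain in the nose, to raise an eosinophilic sinusitis, and 10 mg/kg lonidamine, an inhibitor of glycolysis and of lactate and pyruvate transport, into the stomach. The papain group received the same dose of papain in the nose with phosphate-buffered saline (PBS) into the stomach, and the PBS group received PBS in the nose. The labels give all 3 groups the strain C57BL/6J and no other allele, and the series' design text gives males and females in equal numbers in each. Mucosa of several mice was pooled before capture, with no mouse number stated in the labels. Each group is therefore 1 library, and no difference below has a replicate check or a test.

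Each mature olfactory sensory neuron is known to transcribe 1 allele of 1 odorant receptor gene at a high level and to silence the rest of the family. The receptor protein couples through the G protein subunit Gnal to the adenylyl cyclase Adcy3 and to a cyclic nucleotide-gated channel. Mouse receptors fall into class I genes, in a large cluster on chromosome 7, and class II genes, spread over most chromosomes. Mature neurons make the olfactory marker protein Omp, and immature neurons make the growth cone protein Gap43, so both were used to place the receptors.

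The expressed receptors comprised 59 class I genes, 76 class II genes and 3 genes whose family could not be assigned. Class I made up 43.7% of the expressed receptors with a class, against 12.5% of all receptor genes with a class. In the GRCm38 annotation, 62 of the 138 lay on chromosome 7, 25 on chromosome 2 and 19 on chromosome 9. The pseudogene Olfr718-ps1 was counted as class I but lies on chromosome 5, so its class is uncertain. To show how alike these transcripts are, 30 bases of the open reading frame are given 5′ to 3′ on the coding strand for 4 genes that carry results described further on, read from the GENCODE vM21 transcripts. The 9 capitals mark the codons of aspartate, arginine and tyrosine (the DRY motif) that end the third membrane-spanning helix and take part in G protein coupling.
Olfr672: gctatggcctttGATCGCTACattgccatc
Olfr558: gccatggcctttGACCGCTATgtggccatt
Olfr1030: gtgatggcctatGACAGGTATatggccatc
Olfr1031: ctgatggcctttGATCGTTACatggccatc

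These letters (GAC or GAT, then CGN, AGA or AGG, then TAC or TAT, in frame on the coding strand between codons 100 and 140) were found in 90 of the 138 expressed receptors, which is 65.2%. They were found in 843 of the 1144 receptor genes with a reading frame of at least 900 bases, which is 73.7%. That limit of length was not set for the 138, so the shares are not directly comparable. Over their reading frames, 34 of 129 expressed receptors were at least 95% identical to another receptor gene, and the median identity to the nearest receptor was 84.4%. For those 34 genes the division of reads between copies may be uncertain. The 3′ ends of their transcripts, which 3′ chemistry mainly reads, were not compared. The next sequences show such copies, Olfr597 and Olfr598, whose reading frames were 98.0% identical and whose stretches have the same letters.
Olfr597: gcaatggcttttGATCGATACattgcaatc
Olfr598: gcaatggcttttGATCGATACattgcaatc

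Barcodes with at least 500 UMIs, at least 200 genes and at most 20% mitochondrial UMIs numbered 12149 in the papain+LND library at a median of 5892 UMIs, 10712 in the papain library at 6612 UMIs and 9515 in the PBS library at 7416 UMIs. Between 22 and 36 of these barcodes were shared by any 2 libraries, at most 0.378% of a library. Barcodes were called female when they had UMIs of Xist and none of the Y-linked Ddx3y, Eif2s3y, Uty and Kdm5d, and male in the opposite case. Female barcodes made up 83.3% of those with a call in the papain+LND library, 73.4% in the papain library and 56.8% in the PBS library. Barcodes with at least 3 Omp UMIs are called Omp-positive, those with at least 3 Gap43 UMIs and fewer than 3 Omp UMIs are called Gap43-positive, and the remainder are called other. Omp-positive barcodes numbered 1834 in the papain+LND library (15.1%), 1653 in the papain library (15.4%) and 3227 in the PBS library (33.9%). Intervals given below are exact (Clopper-Pearson) 95% intervals of shares, order-statistic intervals of medians or conditional binomial intervals of ratios, and all cover counting error only.

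The receptors were found where the neuron markers were. At least 1 of the 138 was expressed, with 2 or more UMIs, in 1028 of 1834 Omp-positive papain+LND barcodes (56.1%, interval 53.7 to 58.3), in 862 of 1653 papain barcodes (52.1%, 49.7 to 54.6) and in 1610 of 3227 PBS barcodes (49.9%, 48.2 to 51.6). The intervals of the papain and PBS libraries overlapped, and the papain+LND interval lay above that of the PBS library. Over all 1412 receptor genes the shares were 92.0% in papain+LND, 91.2% in papain and 88.1% in PBS. In other barcodes an expressed receptor was found in 1.73% in papain+LND, 2.1% in papain and 2.36% in PBS. This class can still hold neurons with under 3 UMIs of each marker, so it is not free of receptors by definition. Single barcodes of this class in papain+LND held 86 UMIs of Olfr24 and 92 of Olfr959. Median depths were 7059.5 UMIs in papain+LND, 7665 in papain and 8086 in PBS for Omp-positive barcodes, and 5477 UMIs in papain+LND, 6200 in papain and 6580 in PBS for other barcodes.

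The order of the libraries in that share depended on the threshold for Omp and on the sex of the cells. With 1 Omp UMI as the threshold, the shares were 32.3% in papain+LND, 28.8% in papain and 34.5% in PBS. Among female Omp-positive barcodes, an expressed receptor was found in 55.5% in papain+LND, 47.8% in papain and 56.8% in PBS. Among male ones it was found in 56.5% in papain+LND, 65.8% in papain and 40.3% in PBS. The papain library was thus lower than the PBS library in female barcodes and higher in male barcodes. Since the libraries also differed in the makeup by sex, the treatment and the mice that gave the cells cannot be told apart in the pooled shares.

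Gap43-positive barcodes expressed these receptors less often than Omp-positive ones in each library. The shares were 33.6% of 393 barcodes in papain+LND, 27.7% of 524 in papain and 23.6% of 657 in PBS. Any receptor gene was found in 70.2% in papain+LND, 64.1% in papain and 56.6% in PBS. Barcodes that held both markers are a part of the Omp-positive ones. They had an expressed receptor in 52.3% of 281 barcodes in papain+LND, 49.1% of 287 in papain and 45.9% of 481 in PBS. Omp-positive barcodes with under 3 Gap43 UMIs had one in 56.7% in papain+LND, 52.8% in papain and 50.6% in PBS. The share with both markers was thus lower in each library, with overlapping intervals.

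The 138 genes gave 4857 pairs of a gene and an expressing barcode, of which 3900 were in Omp-positive, 466 in Gap43-positive and 491 in other barcodes. The median gene had 29 expressing barcodes, with a lowest value of 20 and a highest of 174. In the Omp-positive barcodes, 134 of the 138 were found in all 3 libraries. In other barcodes, 43 of the 138 were never found with 2 UMIs.

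**Figure D1:**
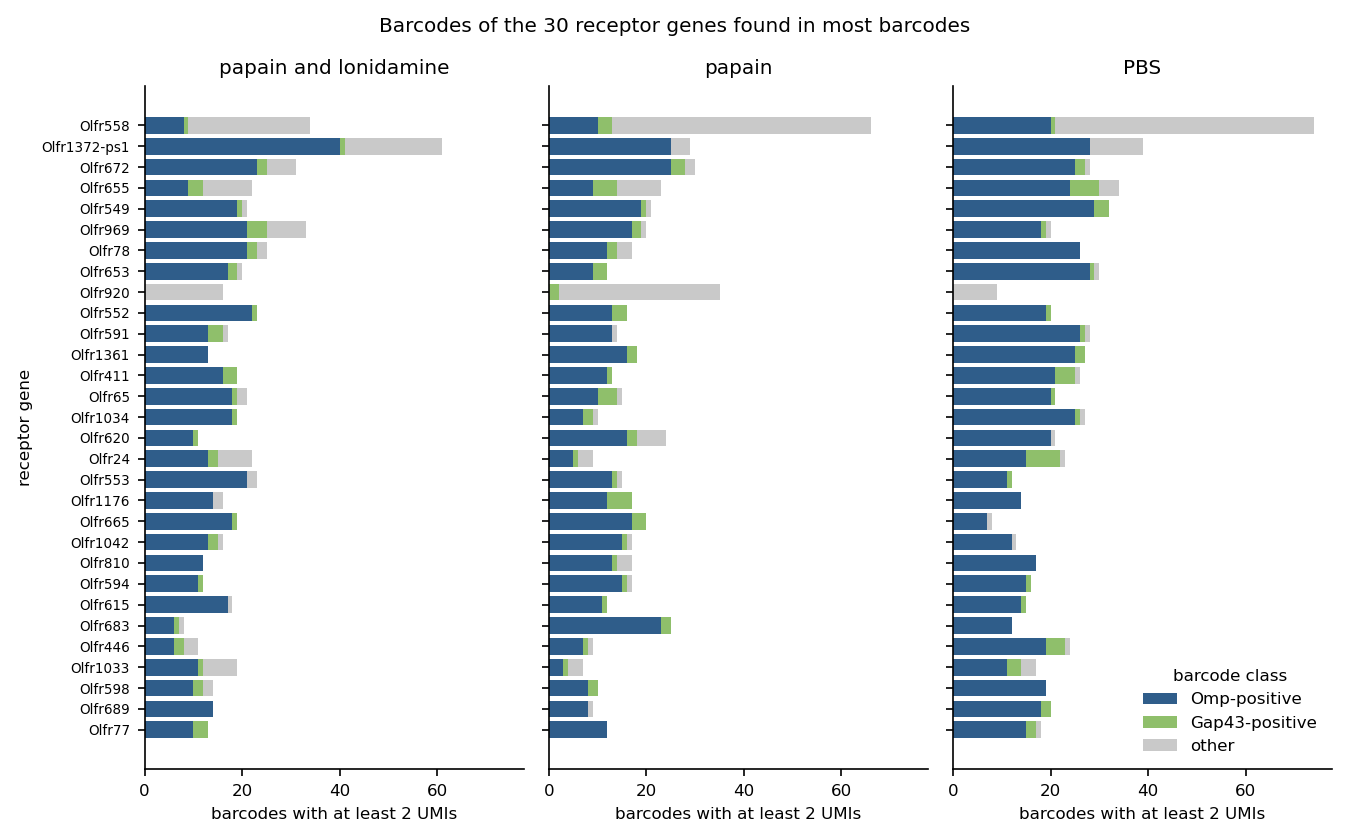
Barcodes with at least 2 UMIs (horizontal axis) of the 30 receptor genes found in most barcodes (rows), in the papain and lonidamine, papain and PBS libraries (panels). Colours divide Omp-positive, Gap43-positive and other barcodes. Most rows are mainly Omp-positive, while Olfr920 and Olfr558 are mainly in other barcodes.

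Olfr672, a class I gene, was the receptor with the most Omp-positive barcodes after the pseudogene Olfr1372-ps1. Its Omp-positive barcodes numbered 23 in papain+LND (1.25%), 25 in papain (1.51%) and 25 in PBS (0.775%). Its median was 105 UMIs per barcode in papain+LND, with a range of 8 to 338, 95 UMIs in papain, with a range of 12 to 224, and 66 UMIs in PBS, with a range of 11 to 169. It had the most UMIs of any receptor in 23 papain+LND, 23 papain and 25 PBS barcodes, so it was nearly always the leading receptor of its barcode.

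Other class I genes among those with the most barcodes had similar levels. Olfr549 was expressed in 19 Omp-positive barcodes in papain+LND at a median of 69 UMIs, in 19 in papain at 68 UMIs and in 29 in PBS at 64 UMIs. Olfr653 was expressed in 17 in papain+LND at 70 UMIs, in 9 in papain at 90 UMIs and in 28 in PBS at 40 UMIs. Olfr552 was expressed in 22 in papain+LND at 65 UMIs, in 13 in papain at 69 UMIs and in 19 in PBS at 34 UMIs. These 3 genes were lowest in the PBS library, by little in Olfr549. Olfr591 went the other way, with 13 barcodes in papain+LND at 31 UMIs, 13 in papain at 46 UMIs and 26 in PBS at 48 UMIs. The class II gene Olfr969 was expressed in 21 in papain+LND at 57 UMIs, in 17 in papain at 106 UMIs and in 18 in PBS at 54.5 UMIs.

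Olfr78, a class I receptor known for binding acetate and propionate and for its presence in the carotid body and in blood vessels, was found mainly in neurons. It was expressed in 21 Omp-positive barcodes in papain+LND at a median of 24 UMIs, in 12 in papain at 17 UMIs and in 26 in PBS at 19 UMIs. It was found in 2 other barcodes in papain+LND, 3 in papain and 0 in PBS, where a count of 0 among 5631, read as at most 3 counts, allows a share of up to 0.0533%.

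Olfr1372-ps1, a pseudogene, had the most Omp-positive barcodes and a low level in each. Its Omp-positive barcodes numbered 40 in papain+LND, 25 in papain and 28 in PBS, at a median of 2 UMIs in each library and a highest value of 10 UMIs in papain+LND, 5 in papain and 5 in PBS. It was the leading receptor in 2 papain+LND, 5 papain and 1 PBS barcodes. Other barcodes made up 27.1% of those expressing it, 20 in papain+LND, 4 in papain and 11 in PBS. Its medians there were 2 UMIs in papain+LND, 2.5 in papain and 2 in PBS, close to those in Omp-positive barcodes. In 11 neuronal barcodes Olfr1372-ps1 occurred with Olfr78, which lies on a different chromosome and had more UMIs in all 11.

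The level of the leading receptor separated the PBS library from the other two. In Omp-positive barcodes with an expressed receptor, the receptor with the most UMIs had a median of 55 UMIs in papain+LND (interval 51 to 59), 55.5 in papain (52 to 59) and 33 in PBS (31 to 35). The quartiles were 30 and 88.25 UMIs in papain+LND, 30 and 89 in papain, and 16 and 55.75 in PBS. The median was thus 1.67-fold higher in papain+LND than in PBS and 1.68-fold higher in papain than in PBS, and neither interval overlapped that of the PBS library. Total depth ran the other way, since Omp-positive PBS barcodes had the most UMIs. Per 10000 UMIs of the barcode, the leading receptor had a median of 79.4 in papain+LND, 67.9 in papain and 42.4 in PBS.

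The same difference was found in each sex and in many of the receptors. The median of the leading receptor was 56 UMIs in papain+LND, 54 in papain and 33 in PBS among female Omp-positive barcodes, and 60 in papain+LND, 63 in papain and 36 in PBS among male ones. Of 90 receptors with at least 5 expressing Omp-positive barcodes in both libraries, 67 had a higher median in papain than in PBS, 21 a lower and 2 an equal one. The median ratio of papain over PBS was 1.45, and 28 receptors were at least 2-fold higher and 3 at least 2-fold lower. Among all 12145 genes read in the same way, 8.63% were higher and 8.3% lower, 0.922% at least 2-fold higher and 0.98% at least 2-fold lower. Most of these genes could hardly differ, since 75.0% had a median of 2 UMIs in both libraries. Between papain+LND and papain, 42 of 77 receptors were higher and 32 lower, at a median ratio of 1.04, against 4.58% and 9.49% of 11873 genes. The 2 comparisons share the papain library.

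Summed over all Omp-positive barcodes, the expressed receptors took 4781 counts per 1000000 UMIs (CPM) in papain+LND, 4089 in papain and 2346 in PBS. All 1412 receptor genes together took 7740 CPM in papain+LND, 6935 in papain and 4146 in PBS, so the expressed receptors made up 61.8% of the receptor UMIs in papain+LND, 59.0% in papain and 56.6% in PBS.

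**Figure D2:**
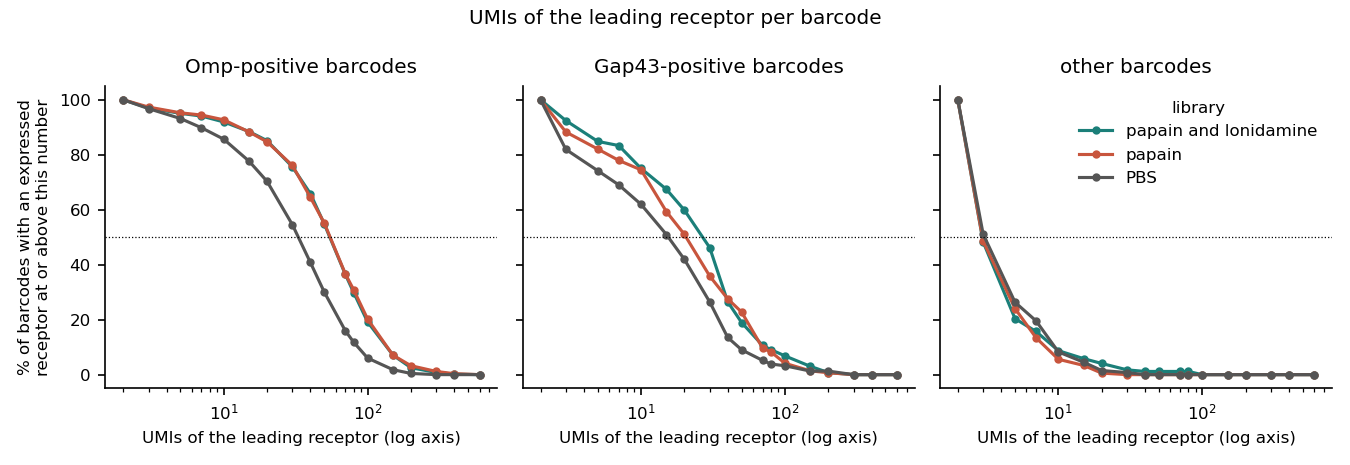
Share of receptor-expressing barcodes (vertical axis, %) whose leading receptor had at least a given number of UMIs (horizontal axis, log), for Omp-positive, Gap43-positive and other barcodes (panels) of the 3 libraries (colours), with a dotted line at 50%. The PBS curve lies left of the others in Omp-positive barcodes, with medians of 55 UMIs in papain and lonidamine, 55.5 in papain and 33 in PBS, and all 3 curves drop within a few UMIs in other barcodes.

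In Gap43-positive barcodes the levels were lower, and PBS was again the lowest library. Their leading receptor had a median of 28 UMIs in papain+LND (21 to 31), 21 in papain (15 to 25) and 15 in PBS (11 to 20). The intervals of papain and PBS overlapped. In other barcodes the median was 2 UMIs in papain+LND, 2 in papain and 3 in PBS, and 91.3% in papain+LND, 94.4% in papain and 91.7% in PBS had under 10 UMIs. Among receptor-expressing Omp-positive barcodes, 8.07% in papain+LND, 7.31% in papain and 14.3% in PBS had under 10 UMIs.

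Levels also differed between receptors. Over all Omp-positive barcodes, medians per receptor ran from 2 to 158.5 UMIs with a median of 44, and 4 receptors had a median under 10 UMIs. The highest was Olfr959, a class II gene, with a median of 145 UMIs in 9 Omp-positive barcodes in papain+LND, 176 in 9 in papain and 81 in 10 in PBS. Olfr679 had medians of 153 UMIs in papain+LND, 187 in papain and 108 in PBS. Olfr1046 had 107 UMIs in papain+LND, 151 in papain and 52 in PBS. The PBS library was lowest for these genes. Olfr981 had 131.5 UMIs in papain+LND, 124.5 in papain and 130 in PBS, and Olfr1357 had 107 in papain+LND, 114.5 in papain and 115 in PBS, each from 3 PBS barcodes.

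Some receptors mixed barcodes of high and of low level. Olfr592 had a median of 3 UMIs in 10 Omp-positive barcodes in papain+LND, 245 in 11 in papain and 66 in 15 in PBS, with a highest value of 561 UMIs in papain. It had under 10 UMIs in 6 papain+LND, 1 papain and 5 PBS barcodes, and in all 6 and all 5 of those in papain+LND and PBS the leading receptor was Olfr588-ps1. Where Olfr592 itself led, its medians were 154 UMIs in papain+LND, 282 in papain and 170.5 in PBS. Olfr655, a class I gene, had medians of 103 UMIs in papain+LND, 66 in papain and 4 in PBS, and 17 of its 24 Omp-positive PBS barcodes had under 10 UMIs. In 14 of those 24 another receptor led the barcode.

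Genes that carry odour signals onward and genes of receptor choice were read beside the receptors. Counted at 2-fold or more in CPM over Omp-positive barcodes, 10.4% of 15868 genes were higher and 3.26% lower in papain than in PBS, at a median log2 ratio of 0.19 over all these genes. Among the expressed receptors, 49 of 137 were higher and 11 lower, at a median log2 ratio of 0.60. The CPM of a receptor rests on few barcodes, at a median of 6 expressing Omp-positive barcodes in papain and 11 in PBS. The part of this in these counts was not tested. Of 15 genes of olfactory transduction, none was at least 2-fold higher or lower, at a median log2 ratio of 0.15. The G protein subunit Gnal had 2983 CPM in papain and 1899 in PBS, and the cyclase Adcy3 had 1180 in papain and 982 in PBS. The channel subunit Cnga2 had 498 CPM in papain and 508 in PBS, and Omp itself had 4005 in papain and 3491 in PBS. These are sums over Omp-positive barcodes, in which fewer cells with a gene and less RNA per cell cannot be told apart.

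Of 7 genes of receptor trafficking and feedback, 1 was higher and 1 lower in papain than in PBS. Rtp1, a chaperone that carries odorant receptors to the cell surface, had 516 CPM in papain and 239 in PBS, a log2 ratio of 1.11. Ddit3, a transcription factor of the unfolded protein response, had 116 CPM in papain and 260 in PBS, a log2 ratio of -1.17. Of 16 genes tied to the choice of a receptor gene, 2 were higher and none lower, at a median log2 ratio of 0.61. These were the transcription factors Emx2, with 151 CPM in papain and 70.9 in PBS, and Tshz1, with 269 in papain and 127 in PBS. Lhx2, which binds the enhancers of receptor genes, had 594 CPM in papain and 407 in PBS, and its cofactor Ldb1 had 68.4 in papain and 38.4 in PBS.

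Between papain+LND and papain, 2.56% of 15776 genes were higher and 2.28% lower by the same rule, at a median log2 ratio of 0.02. Of the expressed receptors, 33 of 137 (24.1%) were higher and 13 (9.49%) lower, at a median log2 ratio of 0.30. These sums rest on a median of 7 expressing Omp-positive barcodes per receptor in papain+LND and 6 in papain. The part of this in the counts was not tested. None of the 38 genes of the 3 lists was 2-fold higher or lower. Rtp1 had 617 CPM in papain+LND and 516 in papain, and Lhx2 had 532 in papain+LND and 594 in papain.

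The share of neurons that expressed each receptor was also compared. Counted by the share of Omp-positive barcodes with at least 2 UMIs, 23 of 137 receptors were at least 2-fold higher and 14 at least 2-fold lower in papain than in PBS. Over all 15891 genes tested, 20.4% were higher and 5.78% lower, at a median log2 ratio of 0.34, against 0.18 over the receptors. With 1 Omp UMI as the threshold, 14 of 138 receptors were higher and 26 lower, against 12.4% and 6.96% of 16287 genes. Between papain+LND and papain, 18 of 137 were higher and 14 lower, against 6.26% and 10.8% of 15798 genes, at a median log2 ratio of 0.06 over the receptors and -0.23 over all genes. Most of these receptors rested on few barcodes. Of the 51 receptors with at least 20 barcodes in papain and PBS together, 8 were higher and 2 lower, against 15.9% and 2.71% of 11348 genes. Of the 33 with at least 20 in papain+LND and papain together, 3 were higher and 1 lower, against 0.512% and 4.4% of 10745 genes.

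Olfr665 and Olfr683, class I genes of chromosome 7, had the highest ratios of papain over PBS among those 51. Olfr665 was expressed in 18 Omp-positive barcodes in papain+LND (0.981%), 17 in papain (1.03%) and 7 in PBS (0.217%), which is 4.74-fold higher in papain than in PBS (1.87 to 13.5). It was higher in papain than in PBS in both sexes, at 0.665% in papain and 0.236% in PBS for female barcodes and at 2.57% in papain and 0.126% in PBS for male ones. Its ratio of papain+LND over papain was 0.954 (0.464 to 1.97). Olfr683 was expressed in 6 Omp-positive barcodes in papain+LND (0.327%), 23 in papain (1.39%) and 12 in PBS (0.372%), which is 3.74-fold higher in papain than in PBS (1.79 to 8.25) and 4.25-fold lower in papain+LND than in papain. For Olfr683 the papain share was above both others, and for Olfr665 the PBS share was below both others. Both genes were picked by these ratios, so their intervals describe counting error and are not tests. Olfr681, Olfr601 and Olfr958 followed, at 3.02-fold, 2.93-fold and 2.60-fold higher in papain than in PBS. The reading frame of Olfr681 was 98.5% identical to that of Olfr679, so its count may be uncertain.

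Olfr1044 and Olfr924, class II genes, had the lowest ratios of papain over PBS among the 51. Both were expressed in 4 Omp-positive barcodes in papain (0.242%) and 22 in PBS (0.682%), which is 2.82-fold lower in papain, with an interval of the ratio that included 1 (0.0889 to 1.05). In papain+LND, Olfr1044 was expressed in 4 barcodes (0.218%) and Olfr924 in 7 (0.382%). In male barcodes Olfr1044 went the other way, with 2 of 272 in papain (0.735%) and 2 of 792 in PBS (0.253%). Olfr1036 and Olfr68 were 2.05-fold lower in papain than in PBS and Olfr1034 was 1.83-fold lower. In their reading frames, Olfr1034 and Olfr1036 were 98.0% identical, Olfr68 was 97.7% identical to Olfr69 and Olfr924 was 96.1% identical to Olfr926. The counts of these genes may therefore be uncertain.

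Olfr1031 had the highest ratio of papain+LND over papain among the 33 receptors. It was expressed in 19 Omp-positive barcodes in papain+LND (1.04%), 3 in papain (0.181%) and 7 in PBS (0.217%), which is 5.71-fold higher in papain+LND than in papain (1.68 to 30.1). Its neighbour Olfr1030 was expressed in 17 barcodes in papain+LND, 6 in papain and 9 in PBS, which is 2.55-fold higher in papain+LND than in papain (0.961 to 7.91). Olfr1034, Olfr653 and Olfr65 followed at 2.32-fold, 1.70-fold and 1.62-fold higher. Among the same 33, the lowest ratios after Olfr683 were those of Olfr620, Olfr681, Olfr594 and Olfr1361, which were 1.78-fold, 1.71-fold, 1.51-fold and 1.37-fold lower in papain+LND than in papain.

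**Figure D3:**
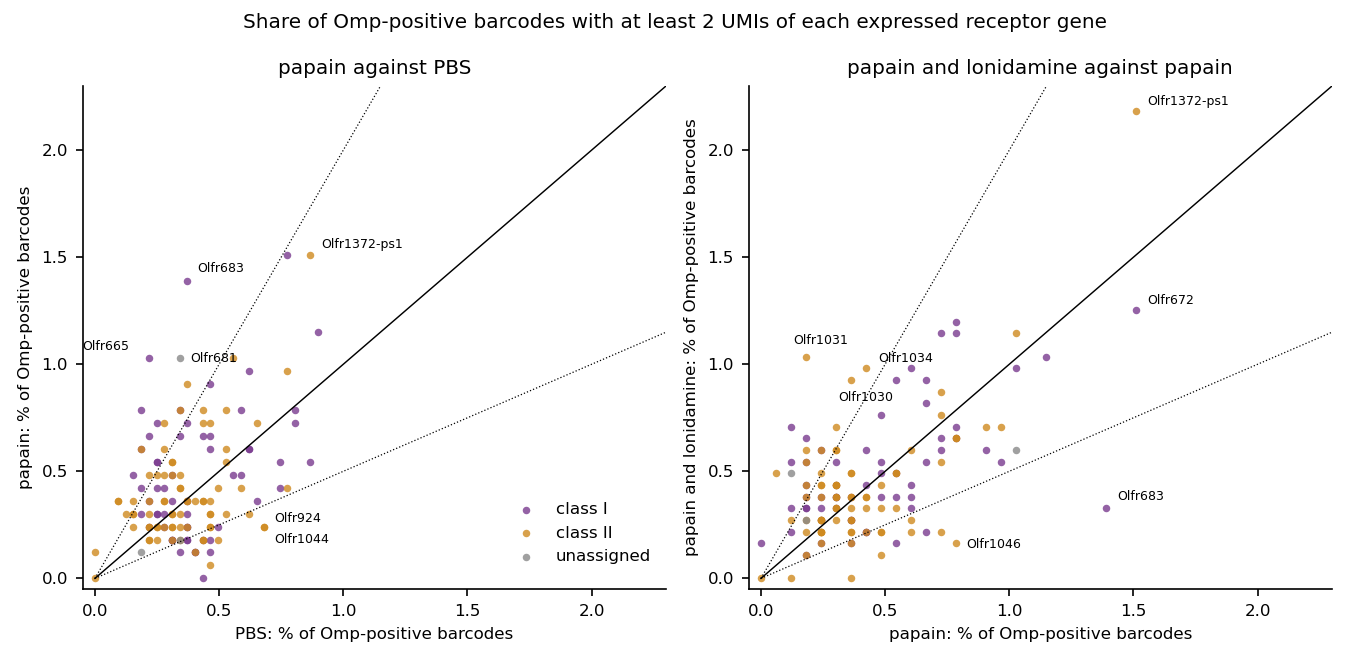
Share of Omp-positive barcodes (%) with at least 2 UMIs of each of the 138 expressed receptors (points, coloured by class), for papain against PBS and for papain and lonidamine against papain. The solid line marks equal shares and the dotted lines 2-fold differences. Olfr683 lies beyond the dotted line in both panels, at 0.327% in papain and lonidamine, 1.39% in papain and 0.372% in PBS.

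The most frequent receptors are given next for libraries of unequal size, since PBS had the most Omp-positive barcodes, and the part of that size in these values was not tested. The highest share was 2.18% in papain+LND (Olfr1372-ps1), 1.51% in papain (Olfr1372-ps1 and Olfr672) and 0.899% in PBS (Olfr549). The pseudogene Olfr1372-ps1 had a median of 2 UMIs and led 2 of its 40 papain+LND barcodes, so these top shares are not alike. Olfr672, nearly always a leading receptor, had 1.25% in papain+LND. The median share was 0.382% in papain+LND, 0.363% in papain and 0.341% in PBS. The 10 most frequent receptors held 18.7% of the pairs of a receptor and an Omp-positive barcode in papain+LND, 18.9% in papain and 15.2% in PBS. Across the 138 receptors, the shares in papain+LND and papain had a Spearman correlation of 0.40, those in papain+LND and PBS 0.29, and those in papain and PBS 0.24. These describe points that share libraries and rest on few barcodes each. When 862 expressing barcodes were drawn from each library, 135 of the receptors were found in papain+LND, 136 in papain and 136 in PBS.

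With the sexes pooled, class I receptors led a larger part of the barcodes in papain+LND. Among Omp-positive barcodes with a leading receptor of known class, over all receptor genes, class I led in 40.2% in papain+LND (37.8 to 42.6), 34.8% in papain (32.4 to 37.3) and 33.5% in PBS (31.7 to 35.3). The papain+LND interval overlapped neither other. The sexes differed here too, with class I leading in 40.8% in papain+LND, 29.6% in papain and 37.3% in PBS among female barcodes, and in 40.2% in papain+LND, 45.1% in papain and 28.1% in PBS among male ones. Papain was therefore below PBS in female and above it in male barcodes. Among female barcodes the papain+LND interval (37.4 to 44.2) overlapped that of PBS (34.8 to 39.8) but not that of papain (26.7 to 32.6). Among male barcodes papain had the highest share. There the papain+LND interval (35.3 to 45.2) overlapped that of papain (38.7 to 51.7) but not that of PBS (24.8 to 31.7). Leading class I receptors had a median of 60 UMIs in papain+LND, 57 in papain and 34 in PBS, and leading class II receptors 47 in papain+LND, 48 in papain and 31 in PBS, so that the PBS library was lowest in both classes.

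The class II genes among the expressed receptors sat mostly in neurons with a dorsal marker. Dorsal neurons of the olfactory epithelium make the enzyme Nqo1, ventral ones make the adhesion molecule Ncam2, and class I receptors are known to be dorsal. Nqo1 was found in 88.1% of Omp-positive barcodes led by an expressed class I receptor in papain+LND, 90.9% in papain and 82.6% in PBS. It was found in 85.7% of those led by an expressed class II receptor in papain+LND, 88.4% in papain and 78.0% in PBS. Where the leading class II receptor was not among the 138, it was found in 60.0% in papain+LND, 46.8% in papain and 48.4% in PBS, with intervals that did not overlap those of the expressed class II genes in any library. Ncam2 ran the other way, at 5.48% in papain+LND, 4.80% in papain and 2.53% in PBS with an expressed class II receptor, and at 26.3% in papain+LND, 36.6% in papain and 28.5% in PBS with another class II receptor. In other barcodes Nqo1 was found in 15.5% in papain+LND, 14.8% in papain and 23.2% in PBS. Neither gene was used to choose the receptors.

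More than 1 of the 138 receptors was seen in a minority of neurons, and more often in both papain libraries. Among Omp-positive barcodes with an expressed receptor, 136 of 1028 in papain+LND (13.2%, 11.2 to 15.5), 114 of 862 in papain (13.2%, 11.0 to 15.7) and 96 of 1610 in PBS (5.96%, 4.86 to 7.23) expressed at least 2. The PBS interval lay below the others. In Gap43-positive barcodes the share was 6.06% in papain+LND (8 barcodes), 6.90% in papain (10) and 10.3% in PBS (16), with overlapping intervals. The most receptors in 1 barcode were 5 in papain+LND, 6 in papain and 3 in PBS.

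These barcodes fell into 3 kinds. The genes were neighbours or overlapped in 56 papain+LND, 21 papain and 41 PBS barcodes, the pair was made with the pseudogene Olfr1372-ps1 in 22 papain+LND, 9 papain and 5 PBS barcodes, and the genes lay apart in 58 papain+LND, 84 papain and 50 PBS barcodes. The last kind made up 5.64% of receptor-expressing Omp-positive barcodes in papain+LND (4.31 to 7.23), 9.74% in papain (7.85 to 11.9) and 3.11% in PBS (2.31 to 4.07), and the 3 intervals did not overlap. At least 2 such genes reached 10 UMIs in 39 papain+LND, 67 papain and 15 PBS barcodes. These barcodes were deep, at a median of 13396.5 UMIs in papain+LND, 17694 in papain and 13346 in PBS, against 7059.5 UMIs in papain+LND, 7665 in papain and 8086 in PBS over all Omp-positive barcodes. How many of them hold more than 1 cell was not tested beyond the doublet calls. With called doublets left out, the share with more than 1 receptor was 12.8% in papain+LND, 13.2% in papain and 5.63% in PBS.

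**Figure D4:**
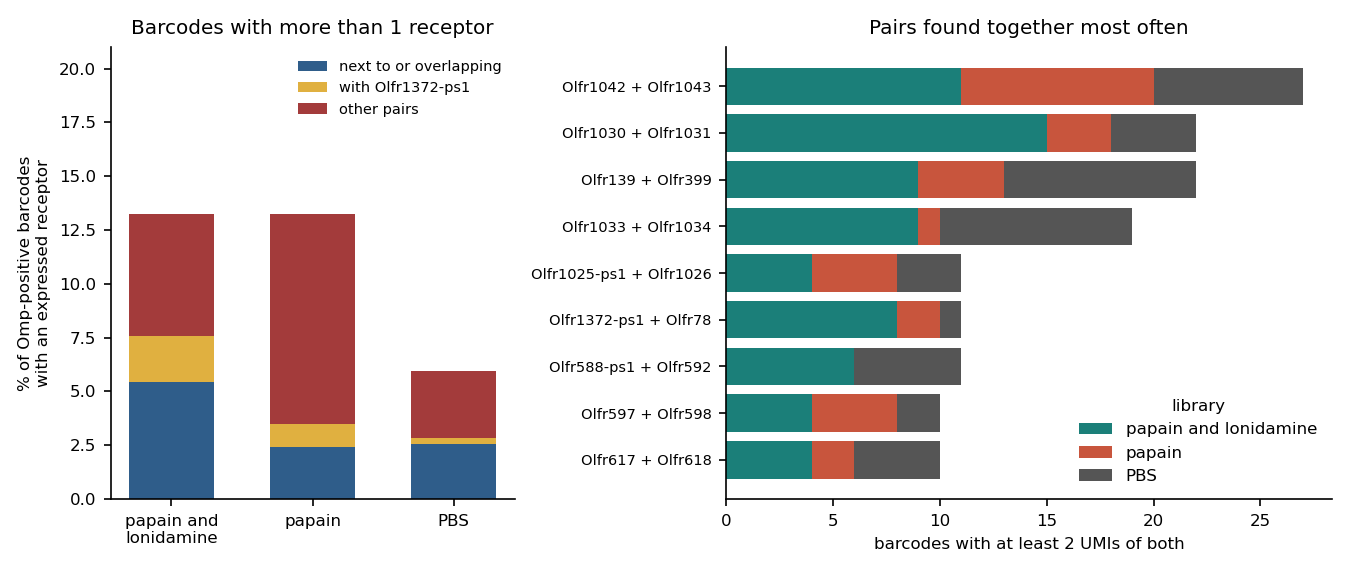
Left, share of receptor-expressing Omp-positive barcodes (%) with more than 1 of the 138 receptors, divided by whether the genes lie next to each other or overlap, include Olfr1372-ps1, or lie apart, in the 3 libraries. Right, barcodes with at least 2 UMIs of both genes (horizontal axis) for the 9 pairs found together most often, coloured by library. The PBS bar is the lowest, at 5.96%, and Olfr1042 with Olfr1043 is the pair found most often, in 27 barcodes.

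Most pairs of receptors were seen once, in 287 of 328 distinct pairs in Omp-positive and Gap43-positive barcodes. The 4 pairs found together most often lay next to each other or overlapped on the same strand, and 81 of the 138 genes had such a neighbour among the 138. After them 3 pairs tied at 11 barcodes, of which Olfr1025-ps1 with Olfr1026 were neighbours and Olfr588-ps1 with Olfr592 and Olfr1372-ps1 with Olfr78 were not. Olfr1042 and Olfr1043 on chromosome 2 were found together in 11 barcodes in papain+LND, 9 in papain and 7 in PBS. This was 62.8% of the neuronal barcodes of Olfr1042 and 81.8% of those of Olfr1043, with medians of 22 UMIs for Olfr1042 and 17 for Olfr1043. Their reading frames were 70.7% identical.

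In Olfr1030 and Olfr1031 the upstream gene Olfr1030 was mostly the higher of the pair. They were found together in 15 barcodes in papain+LND, 3 in papain and 4 in PBS, with medians of 39 UMIs for Olfr1030 and 6.5 for Olfr1031, and Olfr1030 was higher in 20 of 22. Of the 19 Omp-positive barcodes with Olfr1031 in papain+LND, 13 had another leading receptor, which was Olfr1030 in 12. Their reading frames, of which stretches are printed above, were 66.1% identical. The higher share of Olfr1031 in papain+LND is therefore not a count separate from that of Olfr1030.

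The gene models of Olfr139 and Olfr399 overlap on the same strand of chromosome 11, and all 22 neuronal barcodes of Olfr399 also held Olfr139. They were found together in 9 barcodes in papain+LND, 4 in papain and 9 in PBS, with medians of 16 UMIs for Olfr139 and 9.5 for Olfr399. Since the models overlap, the division of reads between the 2 genes is uncertain. Their reading frames were 72.2% identical, and their stretches around the motif show that they are separate genes of the family.
Olfr139: gccatggcctatGACCGCTACctggccatc
Olfr399: gtcatggcctatGATCGTTATctggctatc

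In other frequent pairs 1 gene was at a few UMIs. Olfr1034 had a median of 47 UMIs and Olfr1033 of 3 in 19 shared barcodes, 9 in papain+LND, 1 in papain and 9 in PBS. Olfr1025-ps1 had 75 UMIs and Olfr1026 had 2 in 11 barcodes, 4 in papain+LND, 4 in papain and 3 in PBS. Olfr588-ps1 had 54 UMIs and Olfr592 had 2 in 11 barcodes, 6 in papain+LND, 0 in papain and 5 in PBS, with 3 receptor genes between them. The near-identical Olfr597 and Olfr598 were found together in 10 barcodes, 4 in papain+LND, 4 in papain and 2 in PBS.

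A few receptors were expressed mainly in other barcodes. Olfr558, a class I receptor known to bind short-chain and medium-chain fatty acids and to be made by vascular smooth muscle, had the most barcodes of all 138 genes. It was expressed in 25 other barcodes in papain+LND, 53 in papain and 53 in PBS, while its Omp-positive barcodes numbered 8 in papain+LND, 10 in papain and 20 in PBS. Of its 131 other barcodes, 127 held the smooth muscle actin Acta2, 127 the smooth muscle myosin Myh11 and 129 the pericyte and smooth muscle gene Rgs5. Among all other barcodes, Acta2 was found in 13.7%, Myh11 in 6.86% and Rgs5 in 26.5%.

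Among other barcodes with at least 3 UMIs each of Acta2, Myh11 and Rgs5, Olfr558 was expressed in 21 of 267 in papain+LND (7.87%, 4.93 to 11.8), 46 of 272 in papain (16.9%, 12.7 to 21.9) and 49 of 146 in PBS (33.6%, 26.0 to 41.8). The 3 intervals did not overlap. In the remaining other barcodes the share was 0.0414% in papain+LND, 0.0847% in papain and 0.0729% in PBS. Median depths in the muscle barcodes were 5347 UMIs in papain+LND, 5985.5 in papain and 6053.5 in PBS, and its level there was 52.9 CPM in papain+LND, 90.7 in papain and 204 in PBS. Thinned to 3000 UMIs per barcode, at least 1 UMI was found in 12.8% in papain+LND, 22.3% in papain and 44.1% in PBS, with 24 papain+LND, 12 papain and 3 PBS barcodes too shallow to enter.

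Marker levels and sex moved with this difference. The muscle barcodes had a median of 36 Acta2 UMIs in papain+LND, 47 in papain and 86 in PBS, 16 Myh11 UMIs in papain+LND, 19 in papain and 22 in PBS, and 52 Rgs5 UMIs in papain+LND, 51 in papain and 29 in PBS. The part of these levels in the difference was not tested. Among female muscle barcodes Olfr558 was expressed in 7.37% in papain+LND, 19.7% in papain and 31.9% in PBS, and among male ones in 7.14% in papain+LND, 8.47% in papain and 33.8% in PBS. The order of these shares was the same in both sexes, but not each step lay beyond counting error. The male shares came from 3 of 42 barcodes in papain+LND and 5 of 59 in papain, with overlapping intervals. The male PBS interval lay above both. Among female barcodes the papain interval overlapped that of PBS, and the papain+LND interval lay below both.

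**Figure D5:**
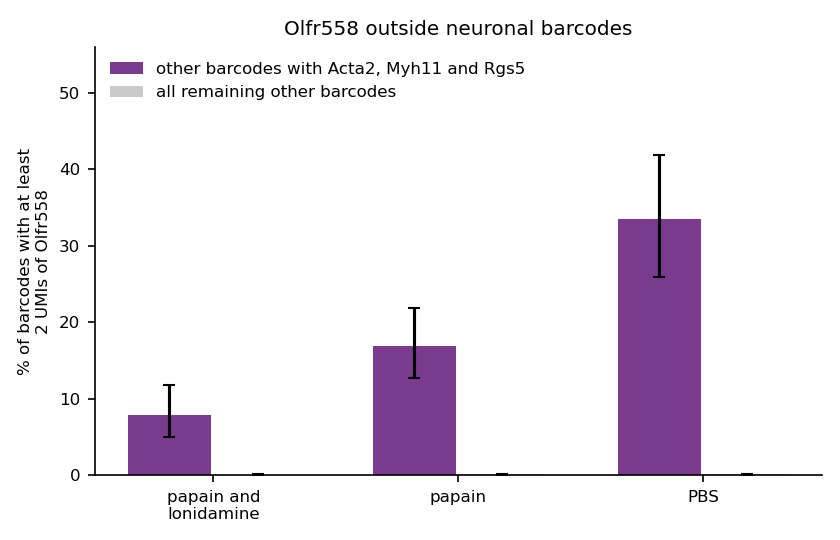
Share of barcodes (%) with at least 2 UMIs of Olfr558 among other barcodes with at least 3 UMIs each of Acta2, Myh11 and Rgs5 and among all remaining other barcodes, in the 3 libraries, with exact 95% intervals that cover counting error only. The share among the muscle barcodes was 7.87% in papain and lonidamine, 16.9% in papain and 33.6% in PBS, and it was at most 0.0847% in the remaining barcodes.

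In Omp-positive barcodes Olfr558 was at its lowest level in the PBS library. Its medians were 48.5 UMIs in papain+LND, 35 in papain and 6.5 in PBS, and it led its barcode in 7 of 8 in papain+LND, 7 of 10 in papain and 13 of 20 in PBS. Where it led, its medians were 51 UMIs in papain+LND, 39 in papain and 27 in PBS. It had under 10 UMIs in 0 papain+LND, 2 papain and 12 PBS barcodes, and it led in 5 of those 12. Those 12 had a median depth of 13688 UMIs, against 8086 over all Omp-positive PBS barcodes. Whether they hold more than 1 cell was not tested.

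Olfr1033, a class II gene, was also found in muscle barcodes. It was expressed in 7 other barcodes in papain+LND, 3 in papain and 3 in PBS, and all 13 held Myh11 and Rgs5. In the muscle barcodes defined above it had at least 2 UMIs in 2.25% in papain+LND (6 barcodes), 0.735% in papain (2) and 1.37% in PBS (2). It had at least 1 UMI in 13.1% in papain+LND, 8.46% in papain and 11.0% in PBS. The reading frame of Olfr1033 was 95.4% identical to that of Olfr1032, so its count may be uncertain. Olfr78, also known from blood vessels, had at least 2 UMIs in 0 of these barcodes in papain+LND, 2 in papain and 0 in PBS, and at least 1 UMI in 4.12% in papain+LND, 5.88% in papain and 5.48% in PBS. For comparison, Olfr672, the frequent neuronal receptor described above, had at least 1 UMI in 1.12% in papain+LND, 0.735% in papain and 0 barcodes in PBS.

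Olfr920 and Olfr1369-ps1 were found mainly in other barcodes at a few UMIs. Olfr920, a class II gene, was expressed in 16 other barcodes in papain+LND, 33 in papain and 9 in PBS, in 2 Gap43-positive papain barcodes and in no Omp-positive barcode. Its median there was 2 UMIs and its highest value 9. Of its 58 other barcodes, 62.1% held the epithelial gene Epcam, against 52.9% of all other barcodes, and 43.1% held the basal cell keratin Krt5, against 24.4%. Genes of different cell types were also more frequent in them, such as Foxj1 of multiciliated cells, in 10.3% against 2.94%, and Adcy3, in 29.3% against 16.1%, and they were deep, at a median of 9479 UMIs. Olfr1369-ps1 was expressed in 9 other barcodes in papain+LND, 17 in papain and 5 in PBS. Of its 31 other barcodes, 51.6% held the leukocyte gene Ptprc, against 27.0% of all other barcodes, and 3.23% held the neutrophil gene Csf3r, against 8.65%. The proliferation gene Mki67 was found in 38.7%, against 9.81%, the dendritic cell gene Flt3 in 16.1%, against 2.41%, and Epcam in 54.8%, against 52.9%. Olfr655 was expressed in 10 other barcodes in papain+LND, 9 in papain and 4 in PBS, which was 29.1% of its barcodes. Without Olfr558, Olfr920, Olfr1369-ps1 and Olfr1372-ps1, the share of other barcodes with an expressed receptor was 1.03% in papain+LND, 0.855% in papain and 0.994% in PBS, at a median of 3 UMIs.

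Among immature neurons, Olfr420, a class II gene, had the highest share. It was expressed in 5 Gap43-positive barcodes in papain+LND, 3 in papain and 5 in PBS and in 4 Omp-positive barcodes in papain+LND, 4 in papain and 5 in PBS, so that 46.4% of its barcodes were Gap43-positive. The median over the 138 receptors was 9.09%. Its medians in Gap43-positive barcodes were 13 UMIs in papain+LND, 16 in papain and 12 in PBS, and in Omp-positive barcodes 49 in papain+LND, 48.5 in papain and 23 in PBS. Olfr19 followed with 25.8%, Olfr1357 and Olfr965 with 25.0% each and Olfr745 with 23.8%, and each rested on under 10 Gap43-positive barcodes.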

How the data were processed

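The deposited values are counts of UMIs per gene and barcode, not normalized, per the file headers. They come from dissociated mucosa captured with 10x Genomics 3′ chemistry, per the labels' protocols. Cell Ranger is given as version 2.1.1 with genome build GRCm39 per the submitters' processing notes and as version 7.1.0 per the file headers. A library name of the papain library in the labels (Fibroblast) differs from its title and treatment, and it was used under its treatment.

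The receptor genes and lists were chosen with earlier results of these data known. A receptor counted as expressed at 2 UMIs. Ratios of shares and of CPM added 0.5 counts for counting 2-fold calls, with genes under 10 UMIs in both libraries together left out of CPM ratios. Folds named for single receptors use no added count, with conditional binomial 95% intervals. A fold of 2 with 1 library per group is a size and not a test. Named receptors were the 10 with most barcodes, the 5 highest and 5 lowest ratios in each comparison with at least 20 barcodes, the 5 highest shares in other and in Gap43-positive barcodes, the 5 highest medians, the 5 most frequent pairs and those at the threshold. Olfr592, Olfr655 and Olfr1033 were looked at more closely after their values were seen, and Olfr597 with Olfr598 was added as a near-identical pair.

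Doublets were kept, as in the rule, and calls of Scrublet in scanpy 1.11.5 (262, 188 and 137 barcodes in the papain and lonidamine, papain and PBS libraries) were left out in an alternative. Classes, neighbours and reading frames came from GENCODE vM21 and RefSeq tables of GRCm38, a different build from that of the files, so no coordinates are given, and receptor families were taken from MOR synonyms (family 42 and below as class I). The ratios were tested on simulated data. Python 3.11.15, numpy 2.4.6, scipy 1.17.1 and biopython 1.88 were used. Settings changed 1 at a time were the UMIs that count a receptor as expressed, the Omp and Gap43 threshold, the barcodes a gene needs, thinning to 3000 UMIs, at most 10% mitochondrial UMIs, doublets, the scale of the ratios, and, added after the data were seen, the sexes, pairs of distant genes, UMIs per 10000 and barcodes shared by libraries.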

Additional observations from a re-analysis of the deposited data

Results flagged for a closer look

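The share of Omp-positive barcodes with an expressed receptor moved in opposite directions in the sexes, by -8.97 percentage points in papain minus PBS among female barcodes and by 25.5 among male barcodes. Each group is 1 pool of mice, and this difference between the sexes was not tested. Receptors of another family were found in neurons outside the rule for odorant receptors. Genes of the trace amine-associated receptor family (Taar) had at least 2 UMIs in 41 Omp-positive barcodes in papain+LND, 52 in papain and 45 in PBS, and the most frequent was Taar4, in 47 barcodes over the 3 libraries.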

How the results depend on the processing

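Of 186 values under other settings, 131 stayed within the interval of the reported value or within 1.5 times a reported count, and 55 did not. An expressed receptor was found in 55.3% of Omp-positive papain barcodes and 52.3% of PBS barcodes at 10 Omp UMIs, and in 32.3% in papain+LND, 28.8% in papain and 34.5% in PBS at 1 Omp UMI. Among female barcodes, a setting chosen like the male one after seeing the data, it was found in 47.8% in papain and 56.8% in PBS, and among male ones in 65.8% in papain and 40.3% in PBS.

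Gap43-positive barcodes held a receptor in 41.9% in papain+LND, 36.3% in papain and 32.4% in PBS at 10 UMIs of the marker, in 17.0% in papain+LND, 14.7% in papain and 14.3% in PBS at 1 UMI, and in 19.3% in PBS at 3 receptor UMIs. Other barcodes did so in 0.837% in papain+LND, 1.02% in papain and 1.21% in PBS at 3 receptor UMIs, and in 0.994% in papain+LND, 1.31% in papain and 1.46% in PBS after thinning to 3000 UMIs. The values were 2.79% in papain+LND, 2.99% in papain and 4.28% in PBS with 10 marker UMIs, and 1.29% in papain+LND, 1.76% in papain and 1.97% in PBS with 1 marker UMI.

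The share with more than 1 receptor was 9.73% in papain+LND and 4.36% in PBS at 3 receptor UMIs, and 9.12% in papain+LND, 10.9% in papain and 3.28% in PBS after thinning. It was 7.27% in PBS among female barcodes, and 5.64% in papain+LND, 9.74% in papain and 3.11% in PBS without neighbouring genes and Olfr1372-ps1, both chosen after seeing the data. No value of this share is given for male barcodes. PBS was the lowest library in this share and in the median of the leading receptor under the settings given for each. That median was 60 UMIs in papain+LND at 10 Omp UMIs, 50 in papain+LND and 51 in papain at 1 Omp UMI, 24 in papain+LND, 22 in papain and 14 in PBS after thinning, and 60 in papain+LND, 63 in papain and 36 in PBS in male barcodes.

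Receptors at least 2-fold apart in papain over PBS numbered 14 higher and 26 lower at 1 Omp UMI, 49 higher in CPM, and 8 higher and 2 lower with at least 20 barcodes. In papain+LND over papain they numbered 33 higher in CPM, and 3 higher and 1 lower with at least 20 barcodes. The rule with 50 barcodes kept 18 genes. A limit of 10% mitochondrial UMIs moved none of its 24 values out of these bounds. The causes were not tested. With 1 pooled library a group, the spread between mice cannot be measured, receptors in under 20 barcodes have wide ratios, and free RNA limits values of 2 or 3 UMIs. No paired analysis was possible because each group has 1 library.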
